A study of Mus musculus with 9 samples.

Results

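Collagen becomes a strong fibre only after enzymes have modified it. Prolyl 4-hydroxylases, whose catalytic alpha subunits are encoded by P4ha1, P4ha2 and P4ha3, hydroxylate proline inside the endoplasmic reticulum and so make the triple helix stable. Lysyl hydroxylases, encoded here by Plod1 and Plod2, hydroxylate lysine, and the lysyl oxidases Lox, Loxl1, Loxl2, Loxl3 and Loxl4 are copper enzymes that oxidise lysine residues outside the cell, where collagen and elastin chains are then cross-linked. Fibroblasts, which make much of the collagen in the body, express members of all 3 families. The members are a list of 10 gene symbols, drawn up by enzyme family with earlier results of these data known, so counts over them are a description of these genes. All 10 were found among the 20672 genes measured. They are covered by 18 of 45101 probe sets, and the value of a gene is that of its probe set with the highest mean over the 9 arrays, called the brightest.

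The cells were mouse embryonic fibroblasts (MEFs) grown in DMEM. The control group carried a short hairpin RNA against GFP, which mouse cells do not make (shGFP, n = 3). Cells of the knockdown group carried a hairpin against the forkhead transcription factor Foxk1 (shFoxk1, n = 3), and those of the rescue group carried the same hairpin together with added Foxk1 (rescue, n = 3). The sources used here give no strain, embryo age, hairpin vector or number of lines, nor the origin of the replicates. All p-values therefore reflect the spread among these arrays alone, and that spread may be technical.

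Levels are log2 values normalised with RMA, so 1 unit is a doubling of signal, and array medians lay between 5.92 and 5.95. Foxk1 itself stood at 8.94 ± 0.05 (SD, n = 3) in shGFP, 7.82 ± 0.12 in shFoxk1 and 7.86 ± 0.16 in rescue, so its brightest probe set showed the knockdown but no return (rescue minus shFoxk1 0.04, limma adjusted p = 0.869). Both dimmer Foxk1 probe sets had no called change. One gave -0.25 with the knockdown (adjusted p = 0.273) and 0.09 in rescue against shFoxk1 (adjusted p = 0.734). On it all shFoxk1 arrays (5.14, 5.14 and 5.09) lay below all shGFP arrays (5.20, 5.36 and 5.56), as for 10.4% of all genes. Rescue overlapped both groups there. The other gave -0.10 (adjusted p = 0.540) and 0.17 (adjusted p = 0.339). On the latter all rescue arrays (4.96, 4.95 and 5.04) lay above all shFoxk1 arrays (4.92, 4.66 and 4.85), as for 8.46% of all genes. Those rescue arrays also lay above all shGFP arrays (4.89, 4.93 and 4.92), which shFoxk1 overlapped. No source used here says where the probes lie relative to the added Foxk1 sequence, so the rescue label is left unchecked by these probe sets. Rescue replicate 2 stood apart, at -14.9 along principal component 2, where the other rescue arrays lay at 0.568 and -4.15. Of 12 fibroblast markers 11 lay at or above the level of the median gene, and Col1a2, a type I collagen gene, lay between 14.66 and 14.77, whereas Lum, a fibroblast proteoglycan gene, was low at 4.27 to 4.49. Endothelial markers (0 of 7 at or above the median gene) and the blood cell gene Ptprc (at most 4.28) were low. The summed signal of 5 smooth muscle markers, 2 of them at or above the median gene, moved with the groups, at 11.08 to 11.15 (log2 of the sum) in shGFP, 11.79 to 11.94 in shFoxk1 and 11.33 to 11.37 in rescue. Most of that sum was Acta2, read on a probe set of the _s_at kind, which may share targets. On a more specific probe set, whose level is not given here, Acta2 differed by -0.13 with the knockdown (limma adjusted p = 0.442). In rescue against shFoxk1 it differed there by -0.0674 (adjusted p = 0.714). Tagln, a gene of the TGF-beta list below, changed by 0.87 and -0.71 in these comparisons. The defining marker Myh11 stayed between 5.13 and 5.38. The summed signal of 7 macrophage and blood markers, of which only Csf1r lay at or above the median gene, was 10.41 to 10.50, 10.11 to 10.17 and 10.12 to 10.21 in the same order. The fibroblast sum stood in small steps without overlap in the order of Lox, at 16.60 to 16.63, about 16.65 and 16.70 to 16.73. The sum of 8 epithelial markers, 2 of them at or above the median gene and the defining Cdh1 at most 4.22, stood apart in rescue, at 8.72 to 8.78, 8.72 to 8.79 and 8.87 to 8.91. The sum of 5 chondrocyte markers, 1 of them at or above the median gene, was lowest in shFoxk1, at 10.02 to 10.09, 9.87 to 9.97 and 9.97 to 10.06. The part of these shifts in the results below was not tested. In bulk samples, fewer cells of a type and less RNA per cell cannot be told apart.

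Differences are between group means of log2 values, with the standard error (SE) of a limma fit over all 9 arrays, and a gene is called at a Benjamini-Hochberg adjusted p under 0.05 over all 20672 genes. In shFoxk1 against shGFP, 3 of 10 members were called, Lox higher and Loxl4 and Plod2 lower, where 4.24% of all genes were called (1.97% higher and 2.26% lower) and 7.48% of the genes at or above the median level, among which 9 of the 10 members fall. In rescue against shFoxk1, 5 of 10 were called, all higher (Lox, Loxl2, P4ha1, P4ha2 and Plod2), where 0.953% of all genes (0.653% higher and 0.3% lower) and 1.65% of those at or above the median level were called. In rescue against shGFP, 4 members were called higher (Lox, Loxl3, P4ha1 and P4ha2) and 1 lower (Loxl4), where 5.04% of all genes (2.5% higher and 2.54% lower) and 8.87% of those at or above the median level were called. The median change of the 10 members was 0.04, 0.33 and 0.17 in the 3 comparisons, beside 0.00, 0.01 and 0.02 for all genes. With arrays centred on their medians, 33.8% of the knockdown calls over all genes were higher (46.6% without centring), and 29.0% of those in rescue against shGFP (49.5% without). The comparisons share samples with each other, so their values are set side by side and not correlated.

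**Figure D1:**
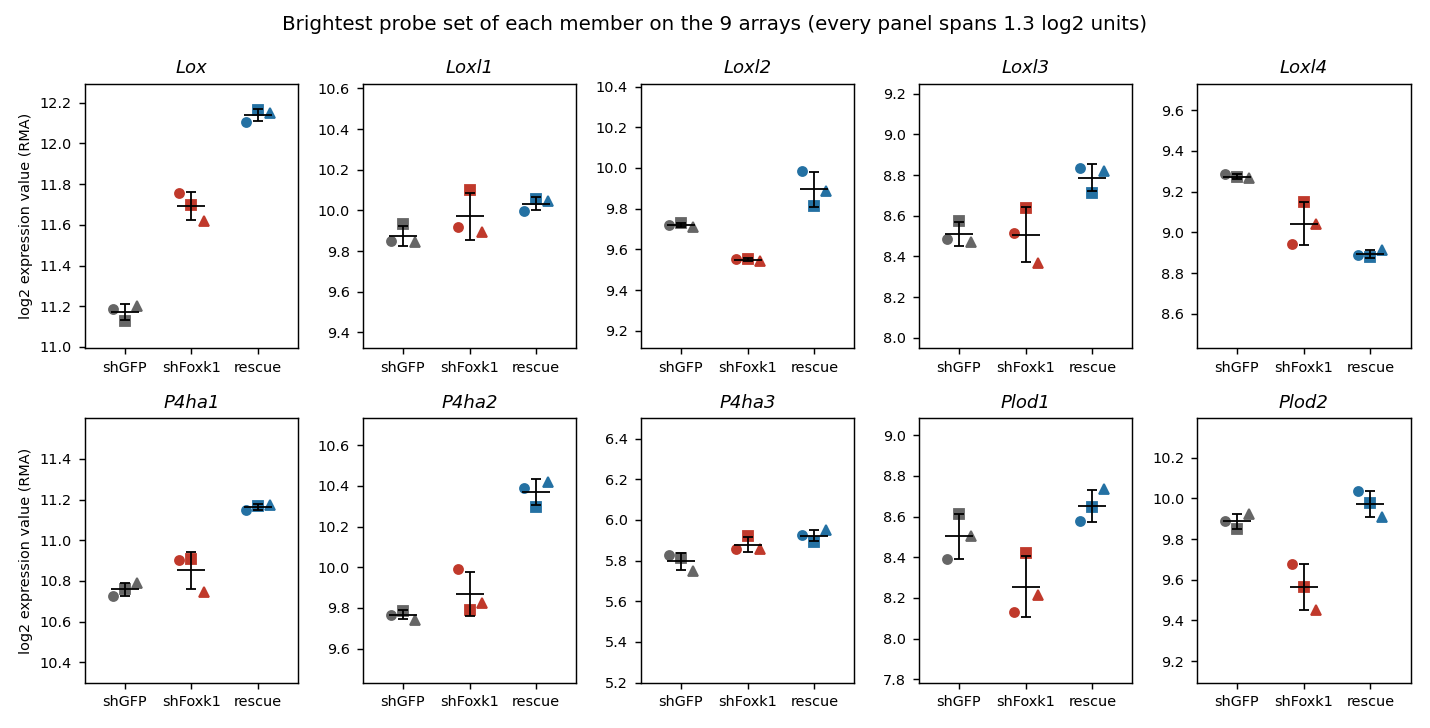
Log2 expression value of the brightest probe set of each member (vertical axis) in the shGFP, shFoxk1 and rescue groups; circles, squares and triangles are replicates 1, 2 and 3, and the bar with whiskers is the mean ± SD. Lox climbs from shGFP (mean 11.17) through shFoxk1 (11.69) to rescue (12.14) with no overlap, P4ha2 stands apart in rescue (10.37), and Plod2 is lowest in shFoxk1 (9.56).

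Among the lysyl oxidases, Lox is taken first. On brightest probe sets it had the largest differences of the 10 members in shFoxk1 against shGFP and in rescue against shGFP. The dimmer Loxl2 probe set changed more with the knockdown (-0.66). Lox encodes the founding enzyme of the family, which acts on fibrillar collagen and elastin. Its brightest probe set read 11.19, 11.13 and 11.20 on the shGFP arrays, 11.76, 11.70 and 11.62 on the shFoxk1 arrays, and 12.10, 12.16 and 12.15 on the rescue arrays. The 3 groups formed 3 separate steps with no overlap, shGFP lowest and rescue highest. Lox rose by 0.52 (SE 0.05, adjusted p = 0.000270) with the knockdown and by a further 0.45 (SE 0.05, adjusted p = 0.00225) in rescue, which left rescue 1.96-fold above shGFP (0.97, SE 0.05, adjusted p = 7.97e-06). The rescue arrays thus lay farther from shGFP than the shFoxk1 arrays did. The calls held whichever of the 9 arrays was left out, with adjusted p of at most 0.00233, 0.0164 and 0.000145. Both dimmer Lox probe sets kept the same order of means. In shGFP the brightest probe set (mean 11.17) lay below the second brightest (11.24). It was the brightest over 9 arrays through shFoxk1 (11.69 against 11.35) and rescue (12.14 against 11.70). The second brightest, whose mean over 9 arrays was 11.43, gave 0.12 (adjusted p = 0.643 in the fit of every probe set), 0.35 (adjusted p = 0.210) and 0.46 (adjusted p = 0.0272). The dimmest gave 0.25 (adjusted p = 0.0390), 0.12 (adjusted p = 0.405) and 0.37 (adjusted p = 0.00461). On the second brightest the shFoxk1 arrays (11.46, 11.09 and 11.51) overlapped the shGFP arrays (11.28, 11.19 and 11.24), and only the rescue arrays (11.75, 11.72 and 11.63) stood apart from both.

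Loxl2 encodes an oxidase known for cross-linking type IV collagen of basement membranes. Its brightest probe set read 9.72, 9.73 and 9.71 in shGFP, 9.55, 9.55 and 9.54 in shFoxk1 and 9.99, 9.81 and 9.89 in rescue. Again no groups overlapped, but here shFoxk1 was lowest. The knockdown difference of -0.17 (SE 0.05, adjusted p = 0.101) was not called, Loxl2 rose by 0.34 in rescue against shFoxk1 (SE 0.05, adjusted p = 0.0109), and rescue minus shGFP was 0.17 (SE 0.05, adjusted p = 0.0847). Without shFoxk1 replicate 1 or 3 the rise in rescue had adjusted p = 0.0550 and 0.0540. The dimmer Loxl2 probe set gave a larger fall with the knockdown. It read 8.72, 8.74 and 8.74 in shGFP, 8.11, 7.94 and 8.17 in shFoxk1 and 8.62, 8.40 and 8.41 in rescue. On it Loxl2 fell by 0.66 (SE 0.08, adjusted p = 0.00102 in the fit of every probe set, where 2.77% were called in this comparison, 0.391% in rescue against shFoxk1 and 3.51% in rescue against shGFP), and rescue lay between the other groups, 0.40 above shFoxk1 (adjusted p = 0.0598) and -0.26 from shGFP (adjusted p = 0.0994). The mean of both probe sets fell by 0.42 with the knockdown (adjusted p = 0.00191).

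Loxl4, another member of the family with the scavenger receptor repeats that Loxl2 and Loxl3 share, moved the opposite way to Lox. Its values were 9.29, 9.27 and 9.27 in shGFP, 8.94, 9.15 and 9.04 in shFoxk1 and 8.89, 8.88 and 8.91 in rescue. Groups did not overlap, with shGFP highest and rescue lowest. Loxl4 fell by 0.23 with the knockdown (SE 0.06, adjusted p = 0.0435), a call lost in 8 of 9 fits that left out 1 array (adjusted p up to 0.157; it held without shFoxk1 replicate 2, adjusted p = 0.0148). Rescue minus shFoxk1 was -0.15 (SE 0.06, adjusted p = 0.273), and Loxl4 was lower in rescue than in shGFP (-0.38, SE 0.06, adjusted p = 0.00295), a call kept with any 1 array left out. The dimmer Loxl4 probe set gave -0.24 (adjusted p = 0.0715) and -0.19 (adjusted p = 0.155) from shGFP in shFoxk1 and rescue. On it shFoxk1 had the lowest mean (6.87, with rescue at 6.92), so the order of these 2 groups differed.

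Loxl3 has 1 probe set, which read 8.48, 8.58 and 8.47 in shGFP, 8.52, 8.64 and 8.37 in shFoxk1 and 8.83, 8.71 and 8.82 in rescue. The shGFP and shFoxk1 arrays overlapped and every rescue array lay above them. The knockdown difference was 0.00 (95% interval -0.16 to 0.15), and the rise of 0.28 in rescue against shGFP (SE 0.07, adjusted p = 0.0492) lost its call in 7 of 9 fits that left out 1 array (adjusted p up to 0.158; it held without shFoxk1 replicate 2 or 3) and when arrays were centred on their medians (0.107). Rescue minus shFoxk1 was also 0.28 (adjusted p = 0.118). Loxl1, which is needed for elastic fibre upkeep in mice, had the smallest spread of group means among the oxidases, from 9.88 ± 0.05 in shGFP through 9.97 ± 0.11 in shFoxk1 to 10.03 ± 0.03 in rescue. None of its differences was called, and the intervals were -0.04 to 0.23 for the knockdown, -0.07 to 0.20 for rescue against shFoxk1 and 0.02 to 0.29 for rescue against shGFP. Its dimmer probe set had the opposite sign in the knockdown (-0.16, adjusted p = 0.258).

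Of the 3 prolyl 4-hydroxylase genes, 0 were called by limma in the knockdown (0 also at an unadjusted p under 0.05), and 2 rose in rescue. P4ha2 read 9.77, 9.79 and 9.74 in shGFP, 9.99, 9.79 and 9.82 in shFoxk1 and 10.39, 10.30 and 10.42 in rescue. The 3 rescue arrays stood clear of all others, while shGFP and shFoxk1 nearly touched. The knockdown difference was 0.10 (SE 0.06, adjusted p = 0.447), and P4ha2 rose by 0.50 (SE 0.06, 1.41-fold, adjusted p = 0.00368) in rescue against shFoxk1 and by 0.60 (SE 0.06, 1.52-fold, adjusted p = 0.000369) against shGFP. Both calls held with any 1 array left out, with adjusted p of at most 0.0288 and 0.00307. P4ha1, the main isoform in most tissues, read 10.72, 10.76 and 10.79 in shGFP, 10.90, 10.91 and 10.75 in shFoxk1 and 11.15, 11.17 and 11.17 in rescue. The first 2 groups overlapped and rescue was above both. P4ha1 rose by 0.31 in rescue against shFoxk1 (SE 0.05, adjusted p = 0.0239) and by 0.41 against shGFP (SE 0.05, adjusted p = 0.00164), with a knockdown difference of 0.09 (SE 0.05, adjusted p = 0.425).

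For P4ha1 the choice of probe set mattered. The dimmer one read 8.24, 8.19 and 8.19 in shGFP, 8.003, 7.69 and 7.78 in shFoxk1 and 8.01, 8.04 and 7.79 in rescue, so shFoxk1 and rescue overlapped each other and both lay below shGFP. On it P4ha1 fell by 0.39 with the knockdown (SE 0.09, adjusted p = 0.0464), and rescue minus shGFP was -0.26 (adjusted p = 0.178). As the mean of both probe sets, P4ha1 differed by 0.22 in rescue against shFoxk1 (adjusted p = 0.131) and by 0.07 against shGFP (adjusted p = 0.545), neither called. The call of the brightest probe set in rescue against shFoxk1 was also lost with any of 4 arrays left out, with adjusted p = 0.0622 and 0.0726 for shFoxk1 replicates 1 and 3, and 0.0784 and 0.0969 for rescue replicates 2 and 3. P4ha3 was the dimmest member and the only one below the median gene, with group means of 5.80 ± 0.04, 5.88 ± 0.04 and 5.92 ± 0.03 in shGFP, shFoxk1 and rescue. None of its differences was called (0.08, 0.04 and 0.13), and the interval of the knockdown difference was -0.02 to 0.18.

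Promoters are shown for P4ha1 and P4ha2 because both rose in rescue against both other groups on their brightest probe sets. The RefSeq table (build GRCm38.p6, 250 bases before to 50 after a start site) held 5 of 10 members, Loxl4, P4ha1, P4ha2, P4ha3 and Plod1. Capitals mark each match to ACGTG, 1 form of the core of the hypoxia response element, or its reverse complement CACGT. Other forms of the core, such as GCGTG, were neither searched nor marked. The P4ha1 window lies at chr10:59323046-59323345 on the plus strand and has 1 match, which starts at position -16 from the start site. The P4ha2 window lies at chr11:54100674-54100973 on the plus strand and has 2 matches, starting at positions -78 and 11.
P4ha1: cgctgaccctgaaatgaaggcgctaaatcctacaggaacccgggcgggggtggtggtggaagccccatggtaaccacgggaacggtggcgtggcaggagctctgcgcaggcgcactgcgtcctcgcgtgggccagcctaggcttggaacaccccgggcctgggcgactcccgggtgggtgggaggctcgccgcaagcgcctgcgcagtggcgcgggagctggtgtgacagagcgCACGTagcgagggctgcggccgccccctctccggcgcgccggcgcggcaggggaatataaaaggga
P4ha2: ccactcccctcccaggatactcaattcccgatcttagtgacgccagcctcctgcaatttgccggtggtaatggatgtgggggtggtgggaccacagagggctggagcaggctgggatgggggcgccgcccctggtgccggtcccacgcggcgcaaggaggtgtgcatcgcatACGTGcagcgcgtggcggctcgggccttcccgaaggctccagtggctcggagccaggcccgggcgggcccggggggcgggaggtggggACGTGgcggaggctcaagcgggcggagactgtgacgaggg
These were the 2 of 5 member promoters with ACGTG on either strand, which 19.62% of 32851 promoter windows of this length hold. The forkhead motif GTAAACA (reverse complement TGTTTAC) occurred in 0 of the 5 and in 3.65% of all windows. A match is a run of letters and not a measured binding site, and no match concerns only this window.

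Both lysyl hydroxylase genes had their lowest mean in shFoxk1. Plod2 encodes the enzyme that hydroxylates lysine in the collagen telopeptides, a step on which a class of stable cross-links depends. Its brightest probe set read 9.89, 9.85 and 9.92 in shGFP, 9.68, 9.56 and 9.45 in shFoxk1 and 10.04, 9.98 and 9.91 in rescue. All shFoxk1 arrays lay below all others, and shGFP and rescue overlapped. Plod2 fell by 0.32 with the knockdown (SE 0.06, adjusted p = 0.0161) and rose by 0.41 in rescue against shFoxk1 (SE 0.06, adjusted p = 0.0126), which left rescue minus shGFP at 0.09 (95% interval -0.05 to 0.22, adjusted p = 0.531). With 1 array left out, the fall had adjusted p = 0.0579 and 0.0712 for shGFP replicates 1 and 3, and 0.0545 for shFoxk1 replicate 3. The rise had adjusted p = 0.0534 for shFoxk1 replicate 3 and 0.0513 for rescue replicate 2. The dimmer Plod2 probe set had the same signs with a tighter spread. It read 9.01, 8.99 and 8.99 in shGFP, 8.75, 8.63 and 8.65 in shFoxk1 and 9.29, 9.34 and 9.34 in rescue, where no groups overlapped. On it Plod2 fell by 0.32 (adjusted p = 0.00707), rose by 0.65 in rescue against shFoxk1 (adjusted p = 0.000423) and ended 0.33 above shGFP (adjusted p = 0.00544), whereas the brightest probe set showed no called difference there.

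Plod1, whose enzyme hydroxylates lysine in the helical part of collagen, read 8.39, 8.61 and 8.50 in shGFP, 8.13, 8.42 and 8.22 in shFoxk1 and 8.58, 8.65 and 8.74 in rescue. Rescue arrays were above all shFoxk1 arrays, and shGFP overlapped with both. The knockdown difference was -0.25 (SE 0.08, adjusted p = 0.141) and rescue minus shFoxk1 was 0.40 (SE 0.08, adjusted p = 0.0574), neither called. With the replicate number as a block, for which same-numbered arrays of these groups deviated together, rescue minus shFoxk1 had adjusted p = 0.0251. The dimmer Plod1 probe set gave 0.08 and 0.07 (adjusted p = 0.802 and 0.832).

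**Figure D2:**
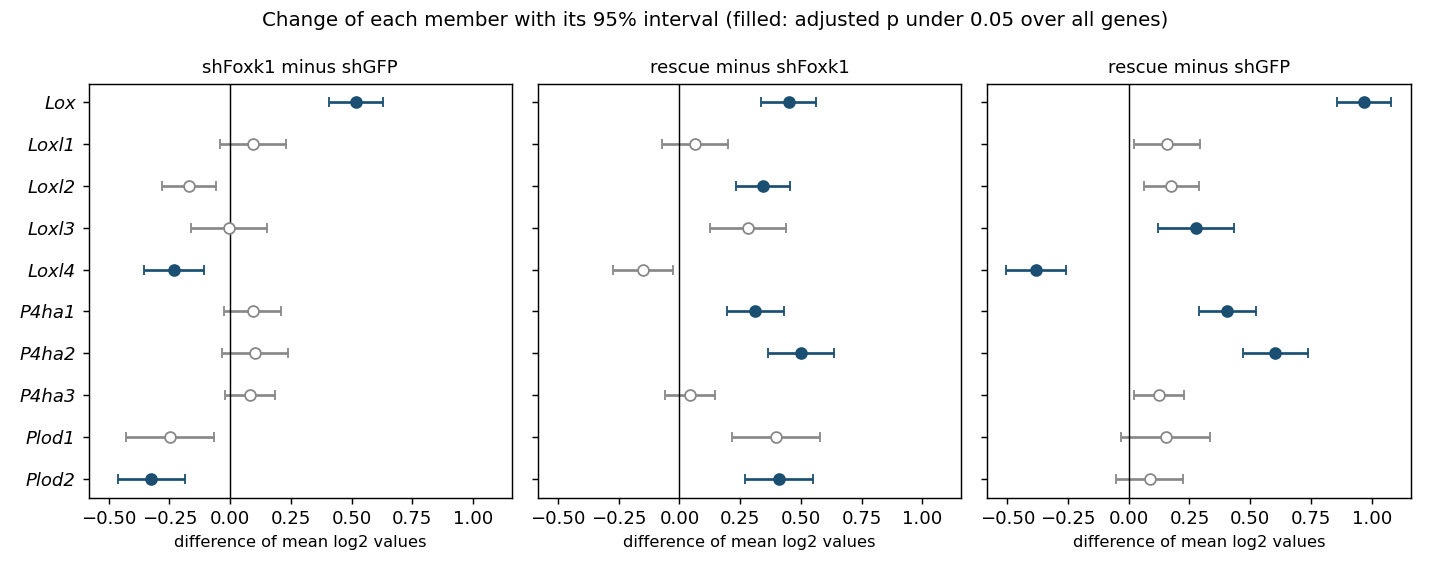
Difference of mean log2 values (horizontal axis) of each member in the 3 comparisons, with 95% intervals; filled points have an adjusted p under 0.05 over all genes and open points do not. The knockdown panel holds changes from -0.32 to 0.52 on both sides of 0, while in rescue minus shFoxk1 Loxl4 (-0.15) is the only point below 0.

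Taken by family, 1 of 5 lysyl oxidases was called higher and 1 lower with the knockdown. There 0 of 3 prolyl 4-hydroxylases were called, and 1 of 2 lysyl hydroxylases was called lower. Over all genes, 1.97% were called higher and 2.26% lower in that comparison. In rescue against shFoxk1, 2 of 5, 2 of 3 and 1 of 2 were called, all higher, beside 0.653% of all genes. In that comparison the groups did not overlap for 8 of 10 members, 7 of them higher in rescue, where 15.6% of all genes did not overlap (8.46% higher and 7.17% lower). In shFoxk1 against shGFP the groups were apart for 6 of 10 members, 3 in each direction, against 22% of all genes (11.6% higher and 10.4% lower), and in rescue against shGFP for 8 of 10, 7 higher, against 22.3% (12% higher and 10.3% lower). Without rescue replicate 2, the array that stood apart, 3 members were called in rescue against shFoxk1 (main 5) and 5 in rescue against shGFP (main 5). In a fit of only the 6 arrays of shFoxk1 and rescue, Lox and P4ha2 were called, and Loxl2 (adjusted p = 0.0619), P4ha1 (0.0986) and Plod2 (0.0673) were not.

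Of the members, 7 have several probe sets. All probe sets of a gene had 1 sign in 4 of these 7 with the knockdown (not Loxl1, P4ha1 and Plod1), in 6 of 7 for rescue against shFoxk1 (not Loxl4) and in 5 of 7 for rescue against shGFP (not Loxl2 and P4ha1). Unequal change was tested with limma on the brightest minus the dimmer probe set over 17417 such pairs of all genes, a test added after the values were seen. In the knockdown, where 1.23% of pairs were called, Loxl2 (0.49, SE 0.08, adjusted p = 0.0113) and P4ha1 (0.48, SE 0.10, adjusted p = 0.0458) were called among the 8 pairs of members. In rescue against shGFP, where 2.1% were called, P4ha1 (0.66, adjusted p = 0.00844), Loxl2 (0.44, adjusted p = 0.0148) and both Lox pairs (0.60 and 0.51, adjusted p = 0.00155 and 0.0412) were called. In rescue against shFoxk1, 0 of 17417 pairs were called (0%, with 1604 at an unadjusted p under 0.05), and the lowest adjusted p among members was that of a Lox pair (0.33, SE 0.06, adjusted p = 0.219). No source used here gives the transcripts that each probe set matches.

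**Figure D3:**
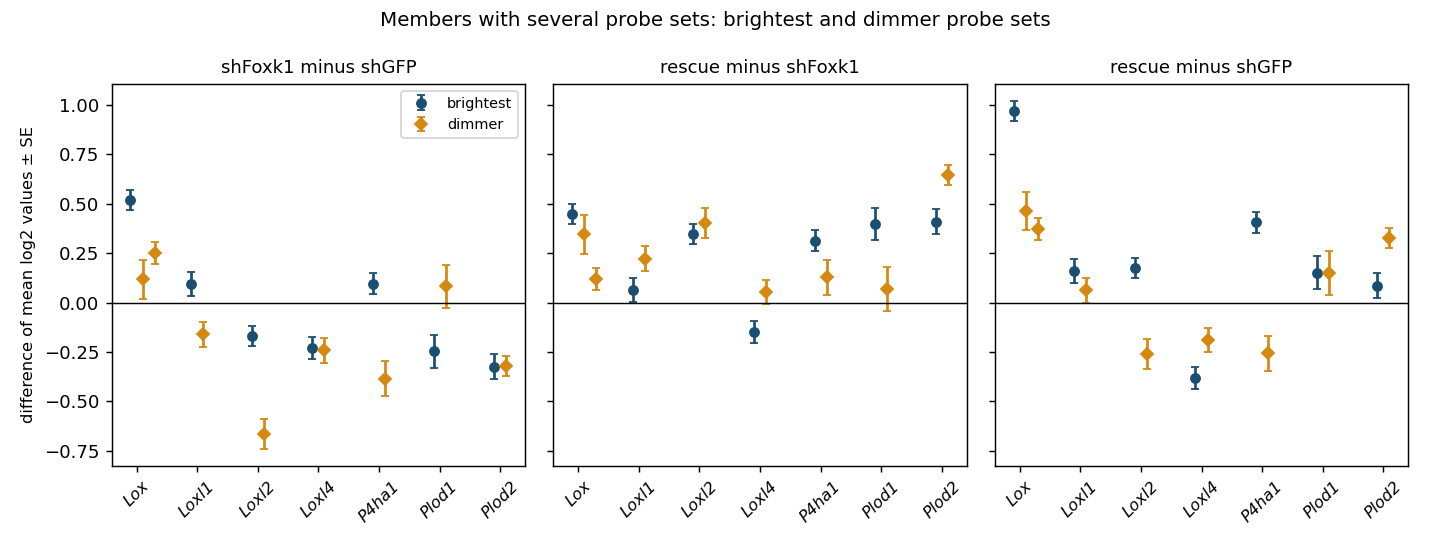
Difference of mean log2 values ± SE (vertical axis) for the 7 members with several probe sets in the 3 comparisons; circles are the brightest probe set and diamonds the dimmer ones. Within the knockdown panel, circle and diamond part most for Loxl2 (-0.17 and -0.66) and P4ha1 (0.09 and -0.39). Both Plod2 probe sets share 1 sign in each comparison.

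The other genes of collagen and elastic fibre assembly were read from textbook lists, drawn up with earlier results of these data known. Over all genes, 4.24% were called with the knockdown, 0.953% in rescue against shFoxk1 and 5.04% in rescue against shGFP. Of 19 genes for collagen synthesis and folding in the endoplasmic reticulum, 2 rose with the knockdown, the transport coat gene Sec23a (0.23, SE 0.05, adjusted p = 0.0269) and the collagen folding gene Fkbp14 (0.32, SE 0.08, adjusted p = 0.0410), 0 fell and 17 did not pass (median 0.02). In rescue against shFoxk1, 0 of the 19 were called by limma (0 at an unadjusted p under 0.05, median 0.06). Among 11 fibrillar collagens, Col5a2 rose by 0.32 with the knockdown (adjusted p = 0.00156) and fell by 0.27 in rescue against shFoxk1 (adjusted p = 0.0123), and the other 10 passed in neither. Against shGFP, rescue had Col3a1 higher by 0.22 (adjusted p = 0.0135) and Col11a1 at -0.38 (adjusted p = 0.0258), and Sec23a higher by 0.26 (adjusted p = 0.0150).

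Of 17 measured genes of procollagen processing and fibril assembly, 2 rose, 2 fell and 13 did not pass with the knockdown. Fibronectin, Fn1, rose by 0.54 (adjusted p = 0.000394) and Thbs1 by 0.22 (adjusted p = 0.0248), while the collagen-binding genes Dpt (-0.78, adjusted p = 0.000429) and Dcn (-0.28, adjusted p = 0.00490) fell. In rescue against shFoxk1, Dcn (0.67) and Dpt (0.55) rose and Thbs1 fell (-0.50). Against shGFP, Fn1 (0.65) and Dcn (0.40) were higher in rescue and the collagen-degrading protease gene Ctsk (-0.51) and Thbs1 (-0.28) lower. Elastic fibre genes, the other substrates and partners of lysyl oxidases, rose in 3 of 18 cases with the knockdown, 0 fell and 15 did not pass (median 0.07). These were Efemp1 (0.39, adjusted p = 0.0257), Mfap3 (0.18, adjusted p = 0.0452) and Mfap2 (0.30, adjusted p = 0.0493). In rescue against shGFP, Mfap2 (0.61), Efemp1 (0.51) and Emilin1 (0.31) were called higher, and 0 of 18 were called by limma in rescue against shFoxk1, with 8 at an unadjusted p under 0.05. Of 12 genes that supply the members with copper, iron, ascorbate or 2-oxoglutarate, the iron transporter gene Slc11a2 fell in shFoxk1 (-0.31, adjusted p = 0.00257) and was lower in rescue (-0.26, adjusted p = 0.00610) than in shGFP, and 11 passed in neither.

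LOX, LOXL2, P4HA1, P4HA2 and PLOD2 are known as genes that the hypoxia factor HIF1 can induce, and the TGF-beta pathway is a known inducer of LOX. The HIF1 and TGF-beta lists were also drawn up with earlier results of these data known. Of 18 other textbook HIF1 targets, 9 fell, 1 rose and 8 did not pass with the knockdown (median -0.27). Over all genes, 2.26% were called lower and 1.97% higher there. In rescue against shFoxk1, 13 of the targets rose, 0 fell and 5 did not pass (median 0.46), beside 0.653% of all genes higher and 0.3% lower. Among the targets, Bhlhe40 had changes of -0.54 and 0.60. Adm, read on a less specific probe set, had -0.88 and 1.17 (-1.13 in the knockdown on another). Ddit4 and Stc2 fell with the knockdown by 0.35 and 0.38. Bnip3 (1.03), Ankrd37 (0.86) and Car9 (1.13) were called in rescue against shFoxk1. In rescue against shGFP, 11 of the 18 were called higher, beside 2.5% of all genes. Mxi1 (0.52), Bnip3 (0.71) and Ankrd37 (0.63) were among the 11, and Stc2 was lower (-0.47). Beside these, Plod2 fell with the knockdown and rose in rescue against shFoxk1 on both of its probe sets. On its brightest probe set Lox was called higher in each comparison. The second brightest Lox probe set was called only in rescue against shGFP, and the dimmest in all but rescue against shFoxk1. On their brightest probe sets, P4ha1 and P4ha2 were called higher in both comparisons with rescue and Loxl2 in rescue against shFoxk1 only. On these probe sets the knockdown gave no call. The dimmer probe sets of Loxl2 (-0.66) and P4ha1 (-0.39) were called lower there in the fit of every probe set. Of 9 measured TGF-beta targets, 4 were called higher and 1 lower with the knockdown (median 0.13). In rescue against shFoxk1, 0 of the 9 rose and 3 fell (median -0.14). Fn1 belongs to this list too. Tagln had changes of 0.87 and -0.71. Ccn2 rose by 0.35 with the knockdown, fell by 0.69 in rescue against shFoxk1 and was at -0.35 from shGFP in rescue. Acta2 had 0.85, -0.57 and 0.28 on the _s_at probe set, and -0.13, -0.0674 and -0.19 (none called) on the more specific one. A part of HIF1 or TGF-beta in the changes of the members was not tested.

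**Figure D4:**
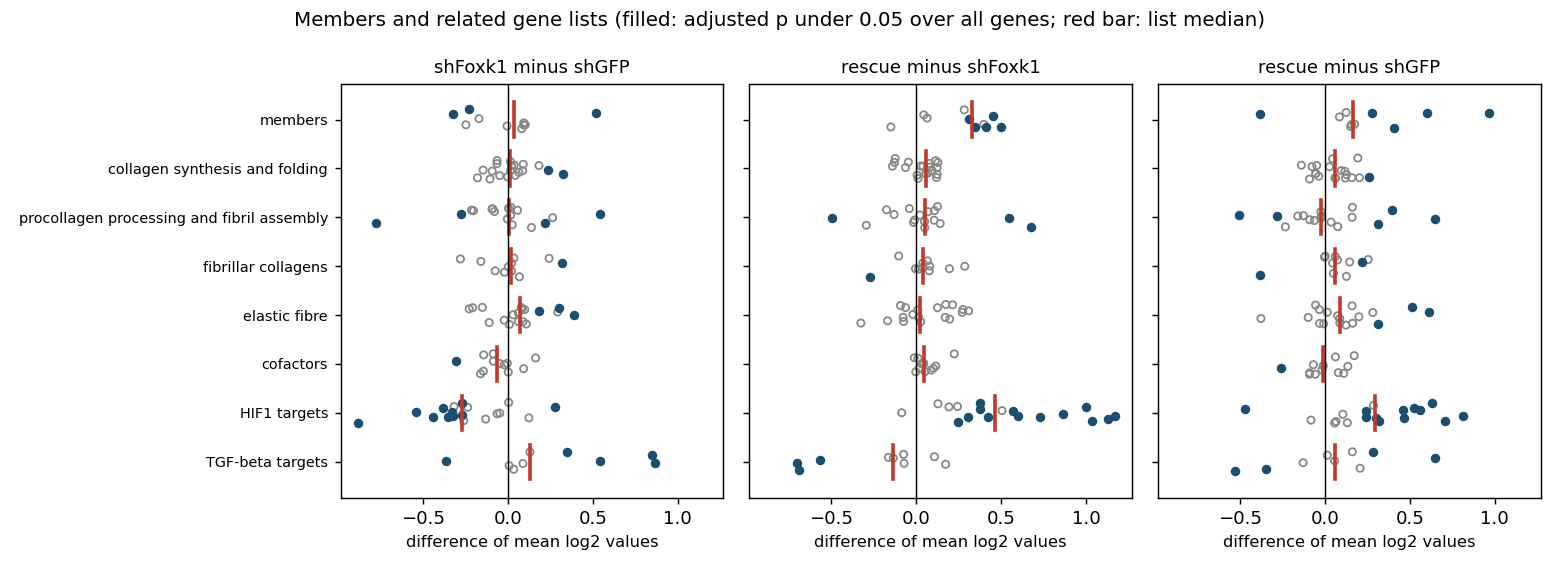
Difference of mean log2 values (horizontal axis) of every measured gene of the members and of 7 related lists in the 3 comparisons; filled points have an adjusted p under 0.05 over all genes, and the red bar is the list's median. Medians of the members and of the HIF1 targets in rescue minus shFoxk1 are 0.33 and 0.46, and those of the collagen and elastic fibre lists lie between 0.02 and 0.06.

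For each of the 7 members called in at least 1 comparison, the genes with the most alike pattern were found by the root mean square difference of centred log2 values over the 9 arrays, among genes whose group means spanned at least the member's range divided by 2, predicted genes and cDNA clones left out. For Lox these were Pcyt1b (0.103), Niban1 (0.131) and Cd248 (0.141), whose means had the same order as those of Lox, out of 255 candidates. P4ha2 lay closest to Ghr (0.0487), followed by Plat (0.0934) and Apln (0.0935), out of 992 candidates. The nearest to P4ha1 were Ndufv3 (0.0460), Junos (0.0475) and Fam162a (0.0485). Those of Plod2 were Ddit4 (0.0517), Synpo (0.0531) and Adgrg6 (0.0554), whose means were lowest in shFoxk1. Loxl2 was nearest to Zfp608 (0.0451), Ntn1 (0.0524) and Higd1a (0.0538), and Loxl3 to Mgst3 (0.0481), Rgs12 (0.0533) and Thra (0.0556). Loxl4, which was lowest in rescue on its brightest probe set, was nearest to Fkbp11 (0.0344), Inpp5a (0.0392) and Slc7a5 (0.0442). These are log2 distances over arrays of 3 groups and describe likeness only.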

How the data were processed

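One array was measured per sample. The authors deposited log2 values per probe set, made with RMA in affy per the submitters' processing notes. The authors' deposited tables give log2 fold changes, p-values and scores (t and B), per the file headers. In shFoxk1 against shGFP and rescue against shFoxk1, computed member fold changes matched the authors' deposited values to within 5.26e-09; no deposited value was used for rescue against shGFP. Array design, probe positions and tool versions were not given in the sources used.

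Symbols came from the authors' deposited tables, updated by Entrez identifier with a RefSeq table of genes. Each of 20672 genes was read from its brightest probe set. A group-means model was fitted with limma 3.58.1 in R 4.3.3 to all 9 arrays (6 residual and 4.46 prior degrees of freedom), two-sided, with no filter. Dimmer probe sets were tested in a fit over 45037 probe sets. The number of arrays limits the precision (median SE 0.0642). The fit was tested on simulated data. Members and lists were chosen with earlier results of these data known. The text names all 10 members, Foxk1, up to 4 called genes of each list with the smallest adjusted p per comparison, and 3 genes of alike pattern per called member. One gene that this rule names is not reported here. Same-numbered arrays of shFoxk1 and rescue had correlated deviations from their group means (0.230, 0.137 and 0.126). These correlations were 0.129, 0.147 and 0.0705 between shFoxk1 and shGFP, and 0.188, 0.126 and 0.0598 between rescue and shGFP. The labels do not say whether the numbers pair arrays. The main fit therefore had no block, and the replicate number as a block was an alternative. Alternatives changed the arrays, probe sets, filter, variance model, weights, centring, block and replicates.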

Additional observations from a re-analysis of the deposited data

How the results depend on the processing

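Members called numbered 3 in the knockdown, 5 in rescue against shFoxk1 and 5 in rescue against shGFP. With array weights 5 were called in the knockdown, and with only the 6 arrays compared 2 were called in rescue against shFoxk1. Leaving out each array in turn gave 1 to 4 (1 without shGFP replicate 1 or 3 or shFoxk1 replicate 3), 2 to 6 (3 without shFoxk1 replicate 1, 2 without shFoxk1 replicate 3, 3 without rescue replicate 2) and 4 to 5. The other alternatives stayed within 1.5 times the main count. With the replicate number as a block, 2, 6 and 4 were called, as Loxl4 (adjusted p = 0.0513) and Loxl3 (0.0611) were lost and Plod1 (0.0251) was gained. Every array correlated best with its own number, a hint from the data and not from the design. As the mean of all probe sets, Loxl1 (-0.0329) and P4ha1 (-0.15) turned their sign in the knockdown and Loxl2 (-0.0433) in rescue against shGFP. Loxl3 ranged from -0.0697 to 0.0650 in the knockdown when 1 array was left out. Of 267 values of single members under the other alternatives, 236 kept their direction and side of the threshold, 12 lost a call and 16 gained one; with 1 array left out these were 239, 26 and 3 of 270. Over all genes, the knockdown count of 876 became 1501 with the filter on low values, 1530 with a trended robust variance, 1541 with array weights, 557, 460 and 499 without shGFP replicates 1, 2 and 3, and 468 without shFoxk1 replicate 1. The count of 197 in rescue against shFoxk1 became 382, 481 and 359 under the first 3 of these, 77 with only the 6 arrays compared, 128 and 130 without shGFP replicates 2 and 3, 74 and 80 without shFoxk1 replicates 1 and 3, and 105 without rescue replicate 2 or 3. That of 1042 in rescue against shGFP became 1614 with the filter, 1640 with the trended robust variance, 578, 567 and 587 without shGFP replicates 1, 2 and 3, and 692 and 587 without rescue replicates 2 and 3. Centring arrays on their medians changed the split of all calls from 408 higher and 468 lower to 295 and 577 in the knockdown, and from 516 and 526 to 315 and 771 in rescue against shGFP. The filter on low values left out P4ha3. The cause of these changes was not tested. Fits that leave arrays out also have fewer arrays.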
